A study of Homo sapiens with 2 samples.

Results

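The 366 peaks of chromosome 9 are described here, out of 9393 peaks that the authors called for Flag-tagged YAP-5SA in MCF10A cells. They were taken by chromosome alone. A 2 Mb segment of 9p21, with summits from 21 to 23 Mb in hg19, was set against the rest of the chromosome. This segment carries CDKN2A and CDKN2B. Peaks and segment were chosen with earlier results of these data known. The segment held 1 peak and the rest of the chromosome held 365. MCF10A is a mammary epithelial line, which the labels call non-transformed in one field and a breast cancer line in another. The study held 1 library of chromatin recovered with Flag-M2 beads from cells expressing Flag-YAP-5SA, an active mutant of YAP, and 1 library of input DNA from MCF10A cells. Both came from cells grown in DMEM/F12 with horse serum, EGF, insulin, hydrocortisone and cholera toxin. The labels give neither the promoter that drove Flag-YAP-5SA nor whether the cells were a clone or a pool, and they do not state whether the input came from cells with the transgene.

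YAP is a transcriptional co-activator of the Hippo pathway. LATS kinases phosphorylate it on serines and so keep it out of the nucleus, and the 5SA mutant lacks the phosphorylated serines. YAP has no DNA-binding domain of its own and reaches chromatin mainly through TEAD factors, in epithelial cells often at enhancers far from promoters. CDKN2A encodes the CDK4 and CDK6 inhibitor p16INK4a and, in another reading frame, ARF, which stabilises p53, and CDKN2B encodes the related inhibitor p15INK4b. Loss of this locus is frequent in immortalised and tumour cells, and MCF10A is known as a line in which it is deleted. The extent of that deletion was not examined here, and no reads of the input library were analysed, so the part of DNA copy number in the values below was not tested.

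With 1 immunoprecipitated library, no value has a replicate check and no p-value is given. The height of a peak is the authors' score at its summit, a whole number with no unit given, and serves here only to order and describe peaks of the same list. The file gives no read counts, so the depth is unknown. Intervals at the 95% level, Wilson for shares and exact Poisson for peaks per Mb, cover counting error only and treat peaks as independent, which neighbouring peaks are not.

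Chromosome 9 as a whole lay in the middle of the list. It ranked 12 of 23 chromosomes in number of peaks, in peaks per Mb, in mean height and in the share of peaks of height 40 or more. Its density was 3.41 peaks per Mb (95% interval 3.07 to 3.77), against 3.46 (3.38 to 3.53) over the other chromosomes together, where lengths leave out each chromosome's longest peak-free stretch. That stretch was 32.6 Mb on chromosome 9, the longest of the 23 chromosomes. The ratio of these densities was 0.99, and it was 0.80 with full spans as lengths. Heights ran from 11 to 63 with a median of 24 and an interquartile range of 19 to 30, which are also the median and quartiles of the other chromosomes. The mean height was 25.7 ± 9.06 (SD over 366 peaks), against 25.8 ± 9.62 over 9027 peaks elsewhere. A height of 40 or more was reached by 30 peaks, or 8.20% (5.80 to 11.5), against 8.69% (8.12 to 9.28) elsewhere. Widths had a median of 599.5 bp and ran from 284 to 1445 bp, against a median of 612 bp elsewhere.

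**Figure D1:**
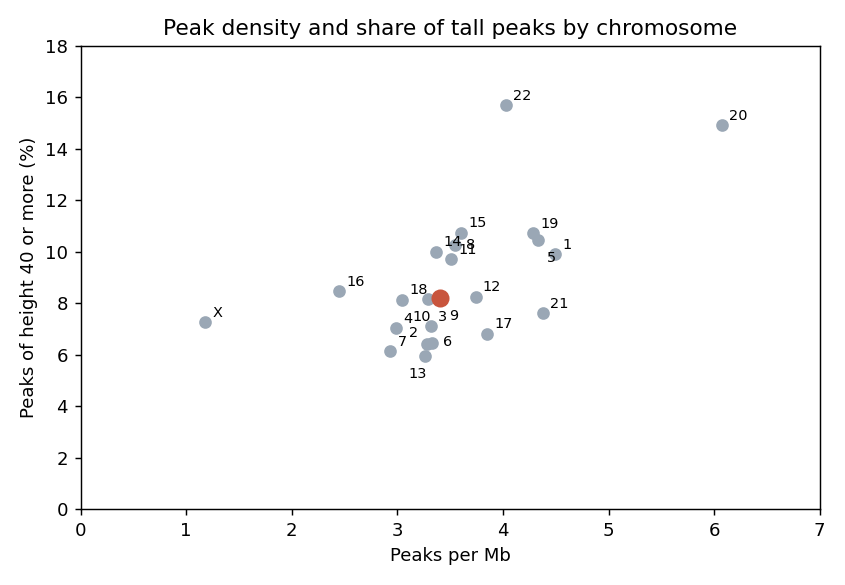
Peaks per Mb (x axis) and the percentage of peaks of height 40 or more (y axis) for each of the 23 chromosomes, 1 point per chromosome. Chromosome 9, in red, sits at 3.41 peaks per Mb and 8.20% among most autosomes, while chromosomes 20, 22 and X lie apart.

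The 9p21 segment held 1 peak, at chr9:21854546-21855044. Its height was 17 and its width was 499 bp. On chromosome 9, 38 peaks were lower, 13 including this one had the same height, and 315 were higher. For width, 92 of the 366 peaks were narrower. The only peak of the segment was therefore low, and it was narrower than the chromosome's median of 599.5 bp. One peak in 2 Mb is a density of 0.50 per Mb (95% interval 0.013 to 2.79), against 3.46 per Mb (3.12 to 3.84) in the rest of the chromosome. Covered length was 0.499 kb of the segment, out of 226.8 kb on the chromosome.

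In gene order, the segment lies in a run of 25 protein-coding genes from MLLT3 to ELAVL2. The order is MLLT3, FOCAD, HACD4, a cluster of 16 type I interferon genes that also holds KLHL9, and then MTAP, CDKN2A, CDKN2B, DMRTA1 and ELAVL2. MLLT3 encodes a subunit of the super elongation complex, MTAP an enzyme of methionine salvage, and ELAVL2 a neuronal RNA-binding protein. This order comes from a RefSeq table of the GRCh38 assembly. Its coordinates were not combined with the hg19 peaks, and whether the peak of the segment lies inside one of these genes was not analysed here. Many of the interferon genes are closely related copies, and whether reads could be placed uniquely there was not examined.

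Few windows of chromosome 9 were as empty as the segment. Of the other 50 windows of 2 Mb laid in step with it, which held a median of 6 peaks and at most 20, 1 held no peak and 3 held 1 peak. That is 8% of windows (95% interval 3.15 to 18.8), against 104 of 1200 windows on the other autosomes, or 8.67% (7.20 to 10.4). A window with 0 or 1 peak was therefore uncommon over the whole chromosome. The share was higher on the short-arm side, on few windows and with overlapping intervals. On the short-arm side, where the segment lies, 3 of the 17 other windows, or 17.6% (6.19 to 41.0), held 0 or 1 peak, against 1 of 33, or 3.03% (0.54 to 15.3), beyond the longest peak-free stretch. With windows 1 Mb out of step, chosen after seeing the data, the share on the chromosome was 6 of 52, or 11.5% (5.40 to 22.97). The 3 on the short-arm side lay at 9 to 11, 29 to 31 and 31 to 33 Mb, and the 1 beyond the stretch lay at 121 to 123 Mb. The windows at 29 to 31 and 31 to 33 Mb adjoin and share a single peak-free distance, from 29.56 to 32.20 Mb. The low count depended on where the window was set. A window 1 Mb earlier held 4 peaks and one 1 Mb later held 2. From 23 to 25 Mb there were 2 peaks, from 24 to 26 Mb none, and from 25 to 27 Mb 2.

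**Figure D2:**
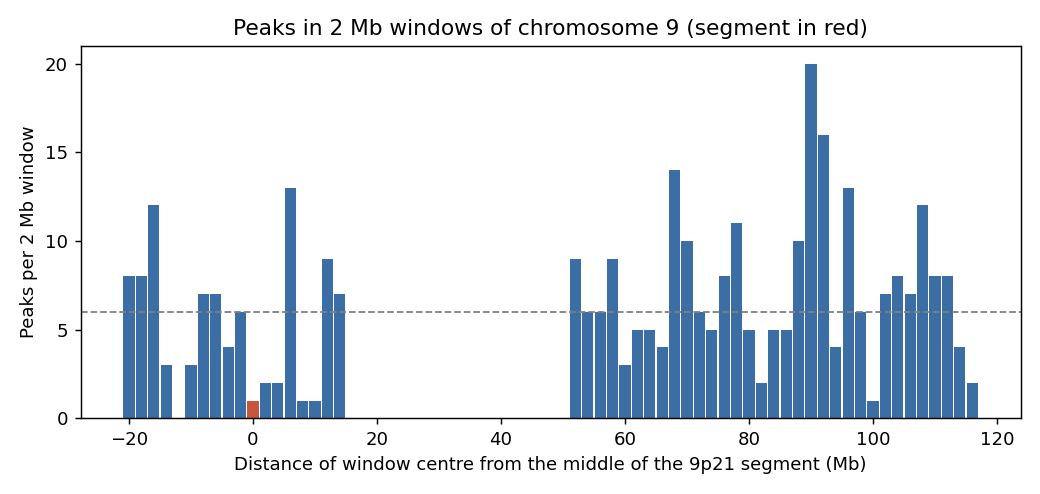
Number of peaks in each 2 Mb window of chromosome 9 (y axis) by the distance of the window's centre from the middle of the 9p21 segment in Mb (x axis). The bar of the segment, in red, stands at 1 peak, the dashed line marks the median of 6 in the other windows, and windows touching the longest peak-free stretch are left out.

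Peaks were sparse over a longer distance than the segment itself, mainly on the side of higher coordinates. The 5 summits before it were at 19.88, 19.91, 20.32, 20.53 and 20.59 Mb, with heights of 19, 22, 27, 17 and 19. The 5 summits after it were at 23.77, 23.86, 26.26, 26.27 and 27.15 Mb, with heights of 20, 20, 21, 20 and 26. The earlier 5 were spread over 0.717 Mb and the later 5 over 3.38 Mb. The distance from the last summit before the segment to its peak was 1.26 Mb, and the distance from its peak to the next summit was 1.91 Mb. These were the 14th and 8th longest of the 365 distances between neighbouring summits of the chromosome, whose median was 147.7 kb. The next distance but one, from 23.86 to 26.26 Mb, was longer still at 2.40 Mb and was the 5th longest.

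Distances of that length were found on other chromosomes too. On the other chromosomes, 150 of 9005 distances, or 1.67%, were at least 1.91 Mb, against 8 of 365, or 2.19%, on chromosome 9. The sparse region was also measured over several neighbours, which takes it beyond the segment. From 20.59 to 26.26 Mb there were 3 peaks in 5.67 Mb. Among the 358 sets of 5 consecutive summits on the chromosome that do not cross its longest peak-free stretch, this was the 3rd longest span. The 2 longer ones, of 5.74 Mb each, overlapped one another around the peak-free distance from 7.80 to 12.68 Mb. Spans of at least 5.67 Mb made up 0.84% of the 358 on chromosome 9, and 58 of 8853, or 0.66%, on the other chromosomes. Of these 58, 31 were on 7 autosomes and the rest on chromosome X. On the other autosomes alone the share was 31 of 8696, or 0.36%.

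A run of low peaks crossed the segment. The 7 consecutive summits from 20.53 to 26.27 Mb had heights of 17, 19, 17, 20, 20, 21 and 20, with a mean of 19.1 ± 1.57 (SD over 7 peaks). They were picked out after their heights had been seen, as a run of peaks at or below the list median of 24, so their low heights are given as a description. This run was the 3rd longest by number of peaks among the 86 runs of peaks at or below 24 on the chromosome, after runs of 10 peaks from 27.42 to 29.56 Mb and of 8 peaks from 104.9 to 107.7 Mb. By length it was the longest, at 5.74 Mb, followed by 2.85 Mb for the run of 8. That length is almost wholly the sparse span from 20.59 to 26.26 Mb given above, and lengths of runs on the other chromosomes were not compared. Runs of 7 or more low peaks made up 3.49% of runs on chromosome 9 and 3.55% elsewhere, so the number of low peaks in a row was not unusual.

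**Figure D3:**
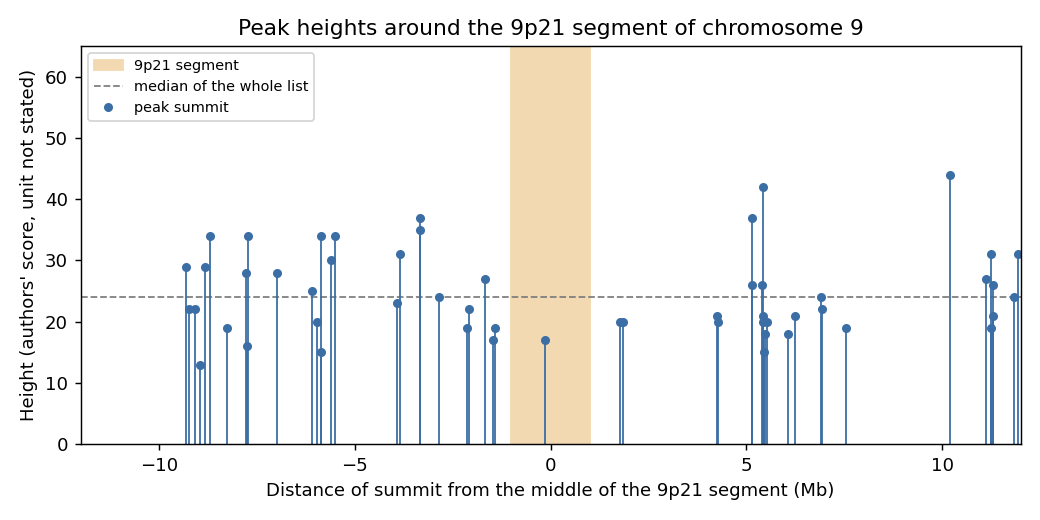
Height of each peak, the authors' score with no unit stated (y axis), by the distance of its summit from the middle of the 9p21 segment in Mb (x axis), with the segment shaded and the list median of 24 dashed. The segment holds 1 summit, of height 17, and the summits from 20.53 to 26.27 Mb all stand below the dashed line.

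Among peaks above the list median, no summit was found from 20.32 Mb, where the height was 27, to 27.15 Mb, where it was 26. Between these summits lay the same 7 low peaks as in the run above. The distance therefore restates that run, picked after its heights had been seen, and is not a separate result. This distance of 6.83 Mb was the 2nd longest of 170 on chromosome 9, after 33.8 Mb across the longest peak-free stretch. Elsewhere, 21 of 4085 distances between such peaks were at least as long. Of these, 11 crossed the longest peak-free stretch of their own chromosome, as the 33.8 Mb distance does. The other 10 comprised 3 on chromosome X and 7 on 5 autosomes. What the longest stretch is on each chromosome was not examined, so the 11 are not set aside as unlike the distance over 9p21. For peaks of height 40 or more, the nearest before the segment was at 4.14 Mb, with a height of 49, and the nearest after it was at 27.42 Mb, with a height of 42. Between them, over 23.3 Mb, lay 55 peaks. Their heights ran from 13 to 37, and their median of 23 was close to that of the chromosome.

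**Figure D4:**
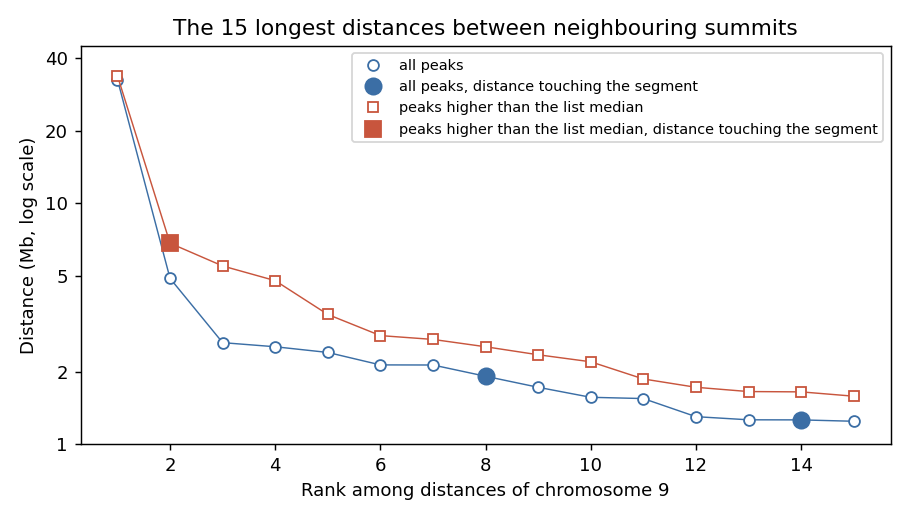
The 15 longest distances between neighbouring summits of chromosome 9 in Mb (y axis, log scale) by rank (x axis), for all peaks (circles) and for peaks above the list median (squares). Filled symbols are distances that touch the 9p21 segment: 1.91 and 1.26 Mb at ranks 8 and 14 for all peaks, and 6.83 Mb at rank 2 for the higher peaks.

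The flanks held similar numbers of peaks, placed differently. In the 5 Mb before the segment there were 15 peaks, of which 7 were above the list median. Their median height was 24 and their range 15 to 37. In the 5 Mb after it there were 13 peaks, of which 4 were above the list median. Their median height was 20 and their range 15 to 42. In the later flank, 9 of the 13 summits lay between 27 and 28 Mb, so the first 4 Mb beyond the segment held 4 peaks. Those 9 included neighbours of heights 26 and 37 at chr9:27151652-27152372 and chr9:27154838-27155476. They also included a pair 94 bp apart, of heights 42 and 21, at chr9:27421393-27422115 and chr9:27422210-27422808. Whether such a pair is 1 enrichment was not examined.

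The short-arm side of the longest peak-free stretch had fewer peaks per Mb than the long-arm side and the same median height, and the counting intervals of the densities overlapped. The 113 peaks from the first summit to 38.7 Mb had a density of 2.95 per Mb (95% interval 2.43 to 3.55), and the 253 peaks from 71.3 Mb on had 3.66 (3.22 to 4.14). The ratio was 1.24, and it was 1.18 without the 9p21 segment. The median height was 24 on both sides, and 7.08% of peaks (3.63 to 13.4) against 8.70% (5.81 to 12.8) had a height of 40 or more. Among windows of 5 Mb that hold peaks, the one from 20 to 25 Mb had 6 peaks, as few as that from 135 to 140 Mb and more than only the last, from 140 Mb, which the final summit ends at 140.5 Mb. Its median height of 19.5 was the 2nd lowest of 23, after 19 from 105 to 110 Mb. The fullest window, from 110 to 115 Mb, had 41 peaks and a median height of 26.

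The tallest peak of the chromosome, of height 63, lay at chr9:109561401-109562039 on the long arm. It ranked 54th in the whole list. The next, of heights 62 and 60, lay on the short-arm side at chr9:35517801-35518760 and chr9:37944886-37945644. The peak of height 62 had a neighbour of height 19 whose summit was 1.66 kb away. Heights of 57 and 54 followed at chr9:112533199-112533932 and chr9:114803761-114805100. A height of 53 was reached at chr9:445826-446800 and chr9:80655484-80656062. The other 8 of the 15 tallest had heights from 44 to 52 and included the peak at chr9:32196706-32197118, of height 44, which ended a peak-free distance of 2.64 Mb. None of the 15 tallest lay between 4.14 and 32.20 Mb. The maximum of 63 placed chromosome 9 at rank 20 of 23 chromosomes, a rank that rests on 1 peak per chromosome. Several maxima were close to it, such as 64 on chromosome 14 and 66 on chromosome 2. The highest was 100, on chromosome 19. The median height of chromosome 9 was that of the other chromosomes together.

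The widest peaks were not always tall. The widest, of 1445 bp, lay at chr9:130860707-130862151 with a height of 45, and the next, of 1340 bp, was the peak of height 54 near 114.8 Mb. The third, of 1278 bp, lay at chr9:33290076-33291353 with a height of 21, below the median. In the narrowest 20% of the chromosome's peaks, from 284 to 481 bp, 2 of 74 peaks had a height of 40 or more, against 11 of 73 in the widest 20%, from 721 to 1445 bp. Across the 366 peaks Spearman's rho between width and height was 0.17, a description across peaks of 1 library.

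Peaks of chromosome 9 formed close groups about as often as elsewhere. With a joining distance of 12500 bp between intervals, 92 peaks, or 25.1% (95% interval 20.97 to 29.8), fell into 41 groups of at least 2, against 23.02% (22.2 to 23.9) of peaks on the other chromosomes. Within 10 kb of another summit lay 21.3% of peaks (17.4 to 25.8), against 19.5% (18.7 to 20.3) elsewhere. Within 50 kb the share was lower on chromosome 9, at 40.4% (35.5 to 45.5) against 48.1% (47.0 to 49.1), and 2 chromosomes had a lower share. Neighbouring peaks are not independent, so these intervals are too narrow.

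Of the 8 groups of 3 or more, the largest held 5 peaks over 28.9 kb at chr9:419315-448165 and contained the first summit of the chromosome. Its heights were 27, 26, 26, 53 and 18. The tallest group by median, of 36, held 3 peaks of heights 36, 32 and 54 at chr9:114792144-114805100. Another group of 3, at chr9:114721745-114728173, lay about 64 kb before it with heights of 25, 27 and 12. The nearest group to the 9p21 segment held 3 peaks at chr9:27421393-27427724, with heights of 42, 21 and 20. The remaining groups of 3 lay at chr9:6930786-6938950, chr9:75593515-75603240, chr9:89989862-89996827 and chr9:110005771-110014552, and their tallest peaks had heights from 23 to 38. No group of 3 or more lay between 6.94 and 27.42 Mb. The single megabases with most peaks were the first of the chromosome and that from 112 to 113 Mb, with 13 each and a median height of 26 in both.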

How the data were processed

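Chromatin was fixed with formaldehyde, sheared by sonication and collected on Flag-M2 beads, and libraries of this DNA and of input DNA were sequenced on an Illumina HiSeq, per the labels' protocols. Per the submitters' processing notes, reads were handled with BWA 0.6.1 and MACS on hg19, while the MACS version and threshold, duplicate filter and use of the input were not given in the sources used here. A summit track with a score and an interval track make up the deposited file, per the file headers. The authors' deposited score is the height of a peak.

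Summit and interval lines were joined by order. All 9393 summits lay on and inside their intervals, and interval starts are given 1-based. Peaks of chromosome 9 were then described by counts, medians, distances and windows, with pandas 2.3.3, numpy 2.4.6 and scipy 1.17.1 under Python 3.11.15 (figures: matplotlib 3.10.9). Window and distance counting was checked on made-up positions with a segment known to hold 1 of them. Length was the distance from first to last summit less the longest peak-free stretch. Windows touching that stretch were left out.

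The peaks named were those of the 9p21 segment, the 5 nearest on each side, those bordering the longest distances, the 15 tallest, the 3 widest and groups of 3 or more. Peaks, the segment and the lists were chosen with earlier results of these data known. No hg19 genome or annotation was used, so planned results on nearby genes and motifs were not run and no sequence is printed.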

Additional observations from a re-analysis of the deposited data

How the results depend on the processing

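No paired analysis was possible because each group has a single library, which also means that none could be left out. The density of the 9p21 segment, 0.50 peaks per Mb, was 1.5 from 20 to 24 Mb, 1.0 in its middle 1 Mb and 0 for peaks above the list median, against 3.48, 3.43 and 1.62 per Mb in the rest of the chromosome. Merging intervals under 200 bp apart left it at 0.50. With windows chosen after seeing the data, it was 2 per Mb 1 Mb earlier and 1 per Mb 1 Mb later. In the 4 planned settings, it was below the rest of the chromosome, which had 3.44 per Mb after merging. The segment held 1 peak, of height 17, far from its neighbours. The outcomes for peaks above the list median and for merging were therefore fixed in advance, and they are no check of the low count. The longest distance touching the segment, 1.91 Mb, was 6.83 Mb for peaks above the list median and, chosen after seeing the data, 23.3 Mb for peaks of height 40 or more, which fewer peaks make longer by construction. Joining at 5 kb gave 24 groups against 41, and at 25 kb 48. The ratio of densities after and before the stretch ran from 1.18 to 1.43. That of chromosome 9 to the other chromosomes ran from 0.80, with full spans as lengths, to 1.01, for peaks above the list median. Results on nearby genes and motifs were not run. The unknown depth and the lack of a replicate limit every value.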
